A study of Mus musculus with 6 samples.

Results

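The genes described here make cholesterol and fatty acids, or switch that synthesis on and off. They were 34 named genes, each matched to the symbol column of the deposited expression table, and all 34 were found among its 41128 genes. By role they comprised 7 genes of the mevalonate pathway, 11 of the sterol pathway from squalene to cholesterol, 5 regulators of the SREBP system, 6 of fatty acid synthesis, 1 sterol carrier, and 4 of the LXR receptors and cholesterol efflux pumps. The question was whether their RNA differed between murine acute myeloid leukemias that carried IRX3 and those that did not.

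The leukemias were initiated in bone marrow (BM) cells of C57BL/6 background. KIT+ stem and progenitor cells of CD45.1+ female donors were infected with retroviral Hoxa9 together with either a MYC-tagged human IRX3 cDNA (Hoxa9/IRX3) or the empty vector MTV (Hoxa9/MTV), selected with drugs, and transplanted into irradiated CD45.2+ female recipients, so that both cohorts carried Hoxa9. When the mice were sick, donor-derived KIT+Gr1+ cells were flow-sorted from BM and their polyadenylated RNA was sequenced, with 1 library for each of 3 mice per cohort, 1.1, 1.2 and 1.4 for Hoxa9/MTV and 3.2, 3.3 and 3.5 for Hoxa9/IRX3. The mice were young adults at transplantation, the age of each at sampling is not given, and the mouse numbers carry no pairing between cohorts. No sequenced group received IRX3 without Hoxa9 or the empty vectors alone, so the comparison reads the addition of IRX3 to Hoxa9 leukemia only. The study describes a later onset of leukemia in Hoxa9/IRX3 recipients, so that IRX3, age and time since transplantation cannot be told apart.

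Cells build cholesterol from acetyl-CoA by way of mevalonate, isoprenoids, squalene and lanosterol, and build fatty acids from the same acetyl-CoA through malonyl-CoA. When membranes of the endoplasmic reticulum run low in sterol, SCAP escorts the SREBP transcription factors to the Golgi, where they are cut and released to switch on the genes of both pathways, whereas INSIG proteins hold SCAP back when sterol is plentiful. The LXR receptors respond to oxidized sterols and switch on genes that export cholesterol, and growing blood and leukemia cells draw on both synthesis and uptake for new membrane.

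Expression was given as RPKM, the reads of a gene per kilobase, scaled to the size of its library. The reads to which each library was scaled, recovered from the steps between low RPKM, numbered 7979238 to 9803610. The deposited RPKM divide by the whole span of each gene, introns included, so that genes with long introns have low values. Levels of different genes are therefore compared below only as exon level, the reads per kilobase of exon scaled to library size in the same way and averaged over the 6 mice. Changes between cohorts are log2 fold changes of RPKM + 0.5 (Hoxa9/IRX3 against Hoxa9/MTV, with the SE), which understate the change of genes with low RPKM. They were tested with limma over the 9522 protein-coding genes whose RPKM exceeded 0.5 in at least 1 mouse, and a gene was said to rise or fall at an adjusted p under 0.05. An exact two-sided permutation test of 3 mice against 3 cannot give a p below 0.1, so limma is the test used unless another is named.

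The introduced IRX3 is a human cDNA, whereas the table gives reads aligned to the mouse gene, so its values do not measure the dose of the transgene. Mouse Irx3 was listed at an RPKM of 0 in each Hoxa9/MTV mouse and at 15.1, 0.421 and 0.148 in mice 3.2, 3.3 and 3.5. Reads assigned to the mouse gene were thus very unequal within the Hoxa9/IRX3 cohort. Hoxa9 RPKM was 340, 363 and 174 in the Hoxa9/MTV mice and 242, 154 and 221 in the Hoxa9/IRX3 mice, with overlapping cohorts and a log2 fold change of -0.46 (limma adjusted p = 0.420, SE 0.33). The sorted Hoxa9/MTV libraries resembled each other more than the Hoxa9/IRX3 libraries did. Computed across genes, which do not count as replicates, Pearson's r was 0.978 to 0.983 between pairs of Hoxa9/MTV libraries, 0.917 to 0.925 between pairs of Hoxa9/IRX3 libraries and 0.894 to 0.918 across cohorts. Mouse 3.2 lay at the far end of the second principal component (21.5% of the variance) from mouse 3.3. Calls among the 34 genes that turn on mouse 3.2 are given below with and without it.

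Of the 34 genes, 27 passed the filter on low values and were tested. None of the 27 passed the limma test, against 510 of 9522 tested genes (5.36%). Over the whole table, 175 genes rose (1.84%) and 335 fell (3.52%), so that 34.3% of the calls were rises, a share that became 43.7% after median-of-ratios scaling and 46.1% after quantile normalization. The 510 calls became 74, 66 and 61 without mouse 1.1, 1.2 and 1.4. With a change of at least 2-fold also required, 298 genes (3.13%) and again 0 of the 27 were called. At an unadjusted p under 0.05, limma named 8 of the 27 (29.6%), close to the 24.3% among all tested genes. By the criterion of the study, an unadjusted p under 0.05 in its own unpaired test on RPKM (not limma) with mean RPKM over 2-fold apart, 0 of the 27 were called, against 6.97% of all tested genes. Using exon length in place of the gene span, which let 33 of the 34 be tested, limma called 0 of 33, against 6.03% of all genes. With limma voom on reads recovered from the RPKM, 0 of 33 were called, against 5.15%.

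The lean of the group was upward although no gene passed. The log2 fold change was above 0 for 19 of the 27 (70.4%), against 42.5% of all tested genes, and the median was 0.18 against -0.06. The lowest Hoxa9/IRX3 mouse exceeded the highest Hoxa9/MTV mouse for 9 of the 27 (33.3%), compared with 12.2% of tested genes. The cohorts were apart in the other direction for 2 of the 27 (7.41%), compared with 21.6%. The filter bears on these counts, since 2 of the 27, Sqle and Nsdhl, passed it through Hoxa9/IRX3 mice only, 0 passed through Hoxa9/MTV mice only, and Elovl6, lower in Hoxa9/IRX3, was just under it. With no filter, the log2 fold change was above 0 for 23 of the 34, beside 47.3% of 14755 genes. Individual changes ran from -0.59 for Tm7sf2 to 1.08 for Stard4. The 95% confidence interval lay within a 2-fold change either way for 23 of the 27 (85.2%), beside 73.6% of all tested genes. This count holds for the scale used, since the added 0.5 narrows the intervals of genes with low RPKM. By exon length the interval of Cyp51, for instance, reached 1.13 in place of 0.81, past a 2-fold change. Spread between mice was like that of other genes: the median within-cohort SD of the log2 values was 0.12 in Hoxa9/MTV and 0.22 in Hoxa9/IRX3, against 0.12 and 0.24 over all tested genes. Mouse 3.3 had the highest value for 11 of the 27 genes and mouse 3.5 for 7, beside 19.1% and 14.1% of all tested genes. In a sorted bulk sample, fewer cells of a type and less RNA per cell cannot be told apart.

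**Figure D1:**
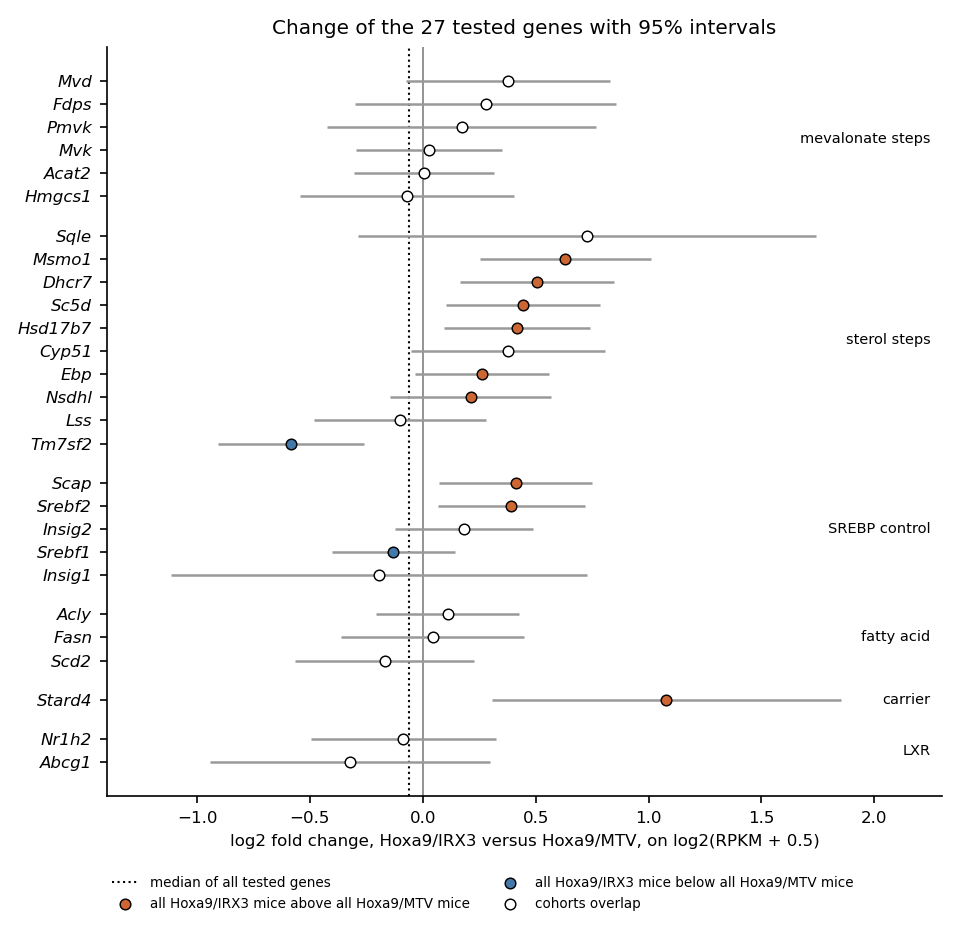
Log2 fold change of RPKM + 0.5, Hoxa9/IRX3 against Hoxa9/MTV, with its 95% confidence interval for each of the 27 tested genes by role, filled where the cohorts did not overlap, and with a dotted line at the median of all tested genes (-0.06). Values run from -0.59 (Tm7sf2) to 1.08 (Stard4), and none passed an adjusted p of 0.05.

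The mevalonate pathway turns acetyl-CoA into the isoprenoid units from which sterols are built. Its 7 genes had exon levels from 0.417 (Idi1) to 13.4 (Hmgcs1), and the cohorts overlapped for all 6 that were tested. Hmgcs1, the cytosolic synthase of HMG-CoA, had an RPKM of 3.54, 3.38 and 3.53 in the Hoxa9/MTV mice and 2.89, 4.65 and 2.64 in the Hoxa9/IRX3 mice. The 3 Hoxa9/MTV mice were almost equal, while mouse 3.3 was above them and mice 3.2 and 3.5 below. Its log2 fold change was -0.07 (adjusted p = 0.857, SE 0.20), a direction that turned under both scalings of the libraries. Pmvk, which adds the second phosphate to mevalonate, was at 0.857, 0.864 and 1.07 RPKM in Hoxa9/MTV and 1.21, 1.69 and 0.608 in Hoxa9/IRX3. Here mouse 3.5 was the lowest of all 6 and mouse 3.3 the highest, and the log2 fold change was 0.17 (adjusted p = 0.703, SE 0.25), turning to -0.05 at the low end when mice were left out in turn.

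Acat2, the thiolase that joins the first acetyl-CoA molecules, had an RPKM of 1.04, 0.796 and 1.02 in Hoxa9/MTV against 1.03, 1.03 and 0.807 in Hoxa9/IRX3. Its cohort means were 0.953 ± 0.136 and 0.957 ± 0.130 (SD, n = 3), and the 95% interval of its log2 fold change ran from -0.31 to 0.31. Mvk, mevalonate kinase, had a log2 fold change of 0.03 (RPKM 0.47 to 0.744 over the 6 mice). Mvd, the decarboxylase that yields isopentenyl diphosphate, had one of 0.38 (RPKM 0.663 to 1.58, adjusted p = 0.270), and Fdps, the synthase of farnesyl diphosphate, one of 0.28 (RPKM 0.992 to 2.51, adjusted p = 0.509). The span of Mvd, 9822 bases, lies within that of Gm20388 on the opposite strand, a gene with a mean of 20337 reads. The 2 genes share 0 exon bases, and reads of Gm20388 counted for Mvd were not tested. Mouse 3.2 held the highest value of both Mvd and Fdps. Without that mouse the log2 fold change was 0.20 for Mvd (adjusted p = 0.408) and 0.04 for Fdps (adjusted p = 0.902). Idi1, which isomerizes isopentenyl diphosphate, fell under the filter with an RPKM of 0.163, 0.052 and 0.149 in Hoxa9/MTV and 0.244, 0.367 and 0.288 in Hoxa9/IRX3. The cohorts did not overlap, with 3 to 10 reads per mouse in the first and 15 to 25 in the second. With exon length its log2 fold change was 0.57 (adjusted p = 0.265), and with voom on reads it was 1.36 (adjusted p = 0.247). Read depth limits what can be said of Idi1.

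**Figure D2:**
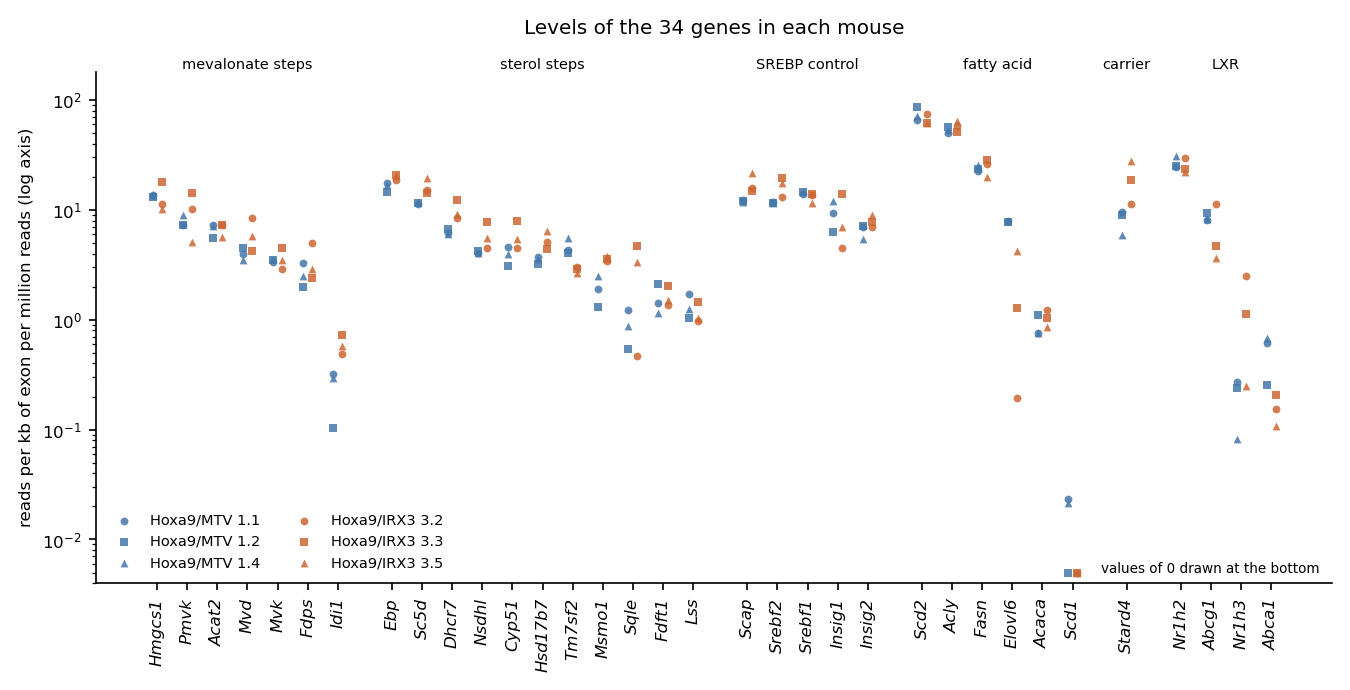
Exon level of each of the 34 genes in each mouse (reads per kilobase of exon scaled to library size, log axis), blue for Hoxa9/MTV and orange for Hoxa9/IRX3, with values of 0 drawn at the bottom. Scd2 is the highest, with a mean of 70.3, Scd1 has almost no reads, and the orange points of Elovl6 and Sqle spread widely.

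The sterol pathway runs from squalene to cholesterol. Of its 11 genes 10 were tested, 8 had a log2 fold change above 0, and the median was 0.40 against -0.06 for all tested genes. The filter bears on these values, since Sqle and Nsdhl, both above 0, passed it through Hoxa9/IRX3 mice only. Fdft1, the gene under the filter, had a log2 fold change of 0.02 with no filter. The cohorts were apart for 7 of these 10, with Hoxa9/IRX3 higher for Msmo1, Nsdhl, Hsd17b7, Ebp, Sc5d and Dhcr7 and lower for Tm7sf2, beside 12.2% of all tested genes apart upward and 21.6% downward. Nsdhl is thus counted upward after a filter that it passed by being high in Hoxa9/IRX3. All 7 stayed apart, in the same direction, after median-of-ratios scaling, which also separated Cyp51. At an unadjusted p under 0.05 limma named 5 of the 10, beside 24.3% of all tested genes, and 0 passed after adjustment.

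Msmo1, the oxidase that removes methyl groups from the sterol ring (ENSMUSG00000031604, GRCm38 chr8:64718139-64733792, minus strand), had an RPKM of 0.751, 0.515 and 0.991 in Hoxa9/MTV and 1.35, 1.40 and 1.51 in Hoxa9/IRX3. These values rest on 104, 67 and 150 reads and on 187, 215 and 188 reads. Every Hoxa9/IRX3 mouse exceeded every Hoxa9/MTV mouse, and the means were 0.752 ± 0.238 and 1.42 ± 0.0799 (SD, n = 3). This amounted to a log2 fold change of 0.63 (adjusted p = 0.0719, SE 0.16, 95% interval 0.25 to 1.01). Of the 27 tested genes it was the closest to a rise by limma, and it passed under quantile normalization alone (0.71, adjusted p = 0.0499), while the other settings gave an adjusted p of up to 0.200.

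Dhcr7, Sc5d and Hsd17b7, which also act on the rings, were higher in every Hoxa9/IRX3 mouse without passing, whereas Tm7sf2 was lower. Dhcr7, the reductase that yields cholesterol (ENSMUSG00000058454, GRCm38 chr7:143823145-143848410, plus strand), had an RPKM of 1.41, 1.53 and 1.40 in Hoxa9/MTV and 1.93, 2.83 and 2.11 in Hoxa9/IRX3. The cohorts did not overlap and the log2 fold change was 0.51 (adjusted p = 0.0926, SE 0.14). Sc5d, a sterol desaturase, was at 4.37, 4.45 and 4.50 RPKM in the tightly grouped Hoxa9/MTV mice and at 5.85, 5.46 and 7.50 in Hoxa9/IRX3. Its log2 fold change was 0.44 (adjusted p = 0.124, SE 0.14), with mouse 3.5 the highest. Hsd17b7, the ketosteroid reductase of the pathway, was at 0.958, 0.825 and 0.929 RPKM in Hoxa9/MTV and at 1.33, 1.15 and 1.68 in Hoxa9/IRX3. The lowest Hoxa9/IRX3 mouse again lay above the highest Hoxa9/MTV mouse, with a log2 fold change of 0.42 (adjusted p = 0.124, SE 0.13).

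Ebp, the sterol isomerase, had the highest exon level of the pathway (18.1). Its RPKM was 4.99, 4.09 and 4.76 in Hoxa9/MTV and 5.24, 5.85 and 5.77 in Hoxa9/IRX3. Its difference was a log2 fold change of 0.26 (adjusted p = 0.246, SE 0.12). Nsdhl, the dehydrogenase that acts after Msmo1, was at 0.289, 0.301 and 0.287 RPKM in Hoxa9/MTV and at 0.319, 0.554 and 0.395 in Hoxa9/IRX3. Mouse 3.2 lay just above the Hoxa9/MTV range and mouse 3.3 well above it, and the log2 fold change was 0.21 (adjusted p = 0.415, SE 0.15). Mouse 3.3 alone brought Nsdhl past the filter. Nsdhl is a case where the added 0.5 is large beside the RPKM, since the log2 fold change was 0.45 with exon length in place of the span.

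Tm7sf2, a sterol reductase of the same stretch of the pathway (ENSMUSG00000024799, GRCm38 chr19:6062821-6068373, minus strand), went the other way. Its RPKM was 3.44, 3.23 and 4.38 in Hoxa9/MTV and 2.38, 2.31 and 2.12 in Hoxa9/IRX3. All 3 Hoxa9/IRX3 mice were below the lowest Hoxa9/MTV mouse, with means of 3.68 ± 0.609 and 2.27 ± 0.134 (SD, n = 3). This gave a value of -0.59 in log2 fold change (adjusted p = 0.0601, SE 0.13, 95% interval -0.91 to -0.26), and the adjusted p stayed between 0.0559 and 0.194 under the other settings. Tm7sf2 shares 532 exon bases on the same strand with Vps51, which had a mean of 494 reads against 148 for Tm7sf2. How many reads in those bases came from either gene was not tested.

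Squalene epoxidase, Sqle, a rate-controlling oxygenation step, varied widely between mice. Its RPKM was 0.421, 0.187 and 0.302 in Hoxa9/MTV and 0.161, 1.62 and 1.14 in Hoxa9/IRX3, from 60, 25 and 47 reads and from 23, 256 and 147 reads. Mouse 3.2 was the lowest of all 6, while mice 3.3 and 3.5 were above every Hoxa9/MTV mouse. The log2 fold change was 0.73 (adjusted p = 0.334, SE 0.42, 95% interval -0.29 to 1.74), and without mouse 3.2 it was 1.23 (adjusted p = 0.0247). Without mouse 3.3 it was 0.39 (adjusted p = 0.567). Sqle passed the filter on low values through Hoxa9/IRX3 mice 3.3 and 3.5 only, and the setting that calls it leaves out the Hoxa9/IRX3 mouse with the low value. It is described by mouse because of values already seen. Cyp51, the demethylase of lanosterol, had a log2 fold change of 0.38 (RPKM 0.571 to 1.47, adjusted p = 0.249), and Lss, which closes the rings to form lanosterol, one of -0.10 (RPKM 0.415 to 0.73, adjusted p = 0.721). Cyp51 shares 166 exon bases with Akap9 on the opposite strand. Fdft1, squalene synthase, was under the filter with 47 to 84 reads per mouse and an RPKM of 0.143 to 0.258. With exon length its log2 fold change was 0.06 (adjusted p = 0.908). It shares 774 exon bases with Ctsb on the opposite strand, a gene with a mean of 4225 reads, and reads of Ctsb counted for Fdft1 were not tested.

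**Figure D3:**
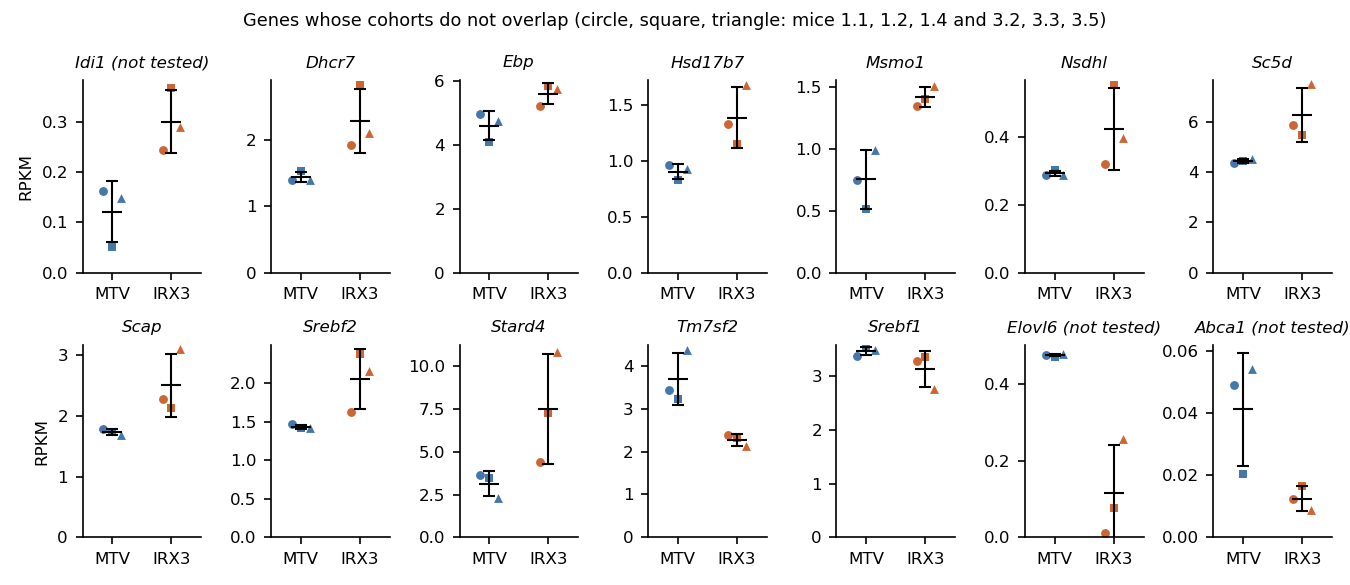
RPKM in each mouse for the 14 genes whose cohorts did not overlap, with the mean and SD of each cohort of 3 mice. Msmo1 spans 0.515 to 0.991 in Hoxa9/MTV and 1.35 to 1.51 in Hoxa9/IRX3, whereas Tm7sf2 spans 3.23 to 4.38 and 2.12 to 2.38.

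The letters of the promoters were read next, and whether genes of the sterol pathway change together was not tested. RefSeq promoters (GRCm38.p6), from 250 bases before to 50 after each start site, were matched for 27 of the 34 genes, and Fdps, Fdft1, Sqle, Scd1, Scd2, Stard4 and Abcg1 had no entry. Searched on both strands were TCACNCCAC for the sterol regulatory element bound by SREBP, CCAAT for the box bound by NF-Y, CACGTG for the E-box, and a direct repeat spaced by 4 bases for LXR. No one of these is part of another, though matches may overlap. CCAAT stood in the promoters of 20 of the 27 genes, compared with 41.1% of the 27025 genes that have RefSeq promoters. It was in 9 of 9 sterol pathway genes, 5 of 6 mevalonate genes, 4 of 5 SREBP regulators, 2 of 4 fatty acid genes and 0 of 3 LXR genes and efflux pumps. The gene of the mevalonate pathway without it was Acat2. Tm7sf2, which leaned downward, held it too. A gene with several start sites was counted if any of its promoter windows held the motif. Both CCAAT boxes of Dhcr7 lay in its window at chr7:143829964-143830263, downstream of the gene start at 143823145, and its other windows held none. TCACNCCAC was in 1 of the 27, Hmgcs1, starting 137 bases before the start site, compared with 1.44% of all genes. CACGTG was in 6 (Abca1, Dhcr7, Hsd17b7, Insig1, Sc5d and Scap), compared with 8.09%, and the LXR repeat in 0, compared with 0.0148%. A match describes letters and not a site in use, and no binding was measured here.

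Stretches before the start site are shown for Hsd17b7, Ebp and Sc5d, whose cohorts did not overlap, and for Hmgcs1 and Mvk, whose cohorts did, so that the boxes can be compared. Each runs 5′ to 3′ on the strand of its gene, with capitals for the 3 motifs found, and a box on the other strand reads ATTGG. They lie at chr1:169969242-169969385 (minus, Hsd17b7), chrX:8193513-8193692 (minus, Ebp), chr9:42264301-42264480 (minus, Sc5d), chr13:119690171-119690350 (plus, Hmgcs1) and chr5:114444089-114444268 (plus, Mvk).
Hsd17b7: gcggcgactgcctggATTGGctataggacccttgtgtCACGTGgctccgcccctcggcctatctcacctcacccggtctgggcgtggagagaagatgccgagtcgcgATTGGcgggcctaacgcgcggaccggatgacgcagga
Ebp: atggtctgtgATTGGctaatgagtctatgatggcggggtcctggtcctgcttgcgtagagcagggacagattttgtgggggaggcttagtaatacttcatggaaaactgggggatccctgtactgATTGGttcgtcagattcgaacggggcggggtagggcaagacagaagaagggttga
Sc5d: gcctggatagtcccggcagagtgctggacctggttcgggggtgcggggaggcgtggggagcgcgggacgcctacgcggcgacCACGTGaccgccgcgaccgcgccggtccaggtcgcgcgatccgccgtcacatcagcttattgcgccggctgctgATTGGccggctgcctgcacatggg
Hmgcs1: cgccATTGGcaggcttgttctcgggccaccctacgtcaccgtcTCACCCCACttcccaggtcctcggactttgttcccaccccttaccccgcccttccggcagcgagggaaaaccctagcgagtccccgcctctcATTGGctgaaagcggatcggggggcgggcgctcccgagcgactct
Mvk: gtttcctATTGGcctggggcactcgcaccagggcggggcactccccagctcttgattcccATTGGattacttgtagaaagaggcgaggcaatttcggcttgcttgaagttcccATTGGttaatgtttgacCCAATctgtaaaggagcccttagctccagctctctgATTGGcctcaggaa
In its whole promoter Mvk held 5 CCAAT boxes, Hmgcs1 held 4, Hsd17b7 held 3, Ebp held 2 and Sc5d held 1.

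**Figure D4:**
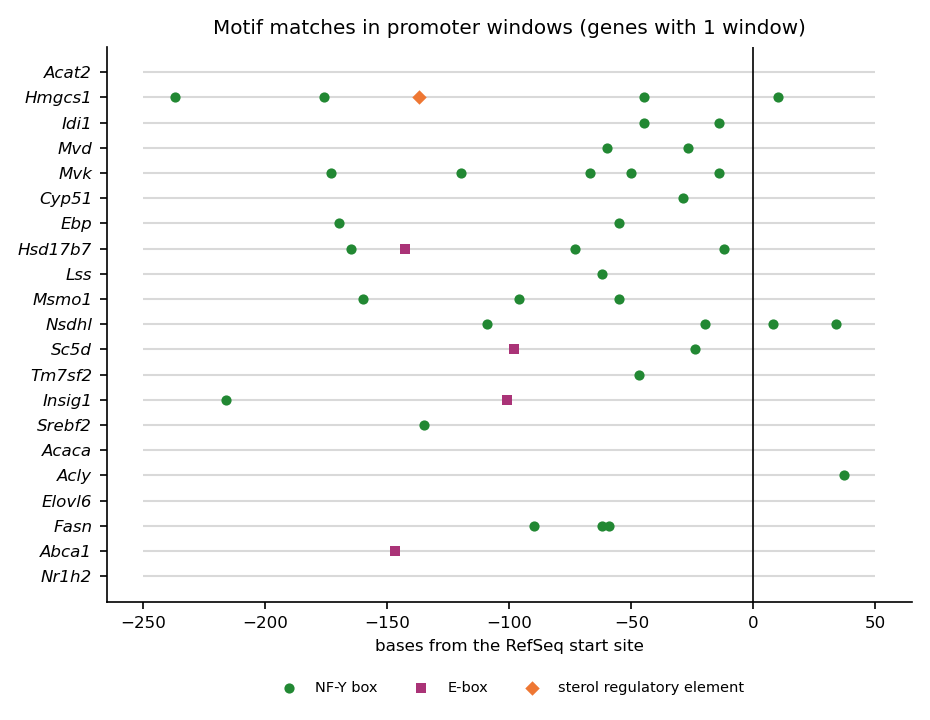
Positions of motif matches, in bases from the RefSeq start site, in the promoters of the 21 genes with a single window. CCAAT boxes (circles) crowd before the start site of Mvk, which holds 5, and Hmgcs1 alone holds the sterol regulatory element (diamond, 137 bases before the start).

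Of the SREBP regulators all 5 were tested, with exon levels from 7.21 (Insig2) to 14.7 (Scap). Srebf2, which encodes the SREBP mainly tied to sterol synthesis, had an RPKM of 1.47, 1.42 and 1.42 in Hoxa9/MTV and 1.63, 2.38 and 2.17 in Hoxa9/IRX3. The cohorts were apart, with mouse 3.2 nearest to the Hoxa9/MTV mice. Srebf2 had a log2 fold change of 0.39 (adjusted p = 0.147, SE 0.14), and without mouse 3.2 it was 0.52 (adjusted p = 0.0456). Scap, the escort of the SREBPs, was at 1.79, 1.73 and 1.69 RPKM in Hoxa9/MTV and at 2.27, 2.13 and 3.10 in Hoxa9/IRX3. It too was higher in all 3 Hoxa9/IRX3 mice, with a log2 fold change of 0.41 (adjusted p = 0.145, SE 0.14). Srebf2 and Scap, which act in the same step, thus had differences of like size, neither past the test.

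Srebf1, whose products include the SREBP most tied to fatty acid synthesis, leaned the other way. Its RPKM was 3.38, 3.53 and 3.49 in Hoxa9/MTV and 3.29, 3.35 and 2.76 in Hoxa9/IRX3. The cohorts were narrowly apart, overlapped once the libraries were scaled by median of ratios, and gave a log2 fold change of -0.13 (adjusted p = 0.510, SE 0.11). Srebf1 shares 109 exon bases with Rai1 on the opposite strand, a gene with a mean of 1133 reads. Insig1, which retains SCAP and is itself switched on by SREBP, ranged from 2.67 to 5.16 RPKM in Hoxa9/MTV and from 1.90 to 5.91 in Hoxa9/IRX3. Its mice varied widely in both cohorts, so that the 95% interval of its log2 fold change of -0.20 ran from -1.12 to 0.73. Insig2, a second retention protein, had a log2 fold change of 0.18 (RPKM 0.666 to 1.11, adjusted p = 0.410).

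The fatty acid genes included the most abundant of the 34. Scd2, a desaturase that makes monounsaturated fatty acids, had an exon level of 70.3, Acly, which cleaves citrate to acetyl-CoA, one of 55.7, and Fasn, fatty acid synthase, one of 24.3. Scd2 RPKM was 26.99, 35.8 and 29.9 in Hoxa9/MTV and 31.0, 25.5 and 25.5 in Hoxa9/IRX3 (log2 fold change -0.17, adjusted p = 0.559, SE 0.17). Scd2 shares 61 exon bases on the same strand with Mir5114, a gene with a mean of 167 reads. Acly RPKM was 5.11, 5.79 and 5.43 in Hoxa9/MTV and 5.97, 5.19 and 6.65 in Hoxa9/IRX3 (log2 fold change 0.11, adjusted p = 0.638, SE 0.13). Fasn RPKM was 13.2, 13.8 and 14.9 in Hoxa9/MTV and 15.3, 16.8 and 11.6 in Hoxa9/IRX3 (log2 fold change 0.04, adjusted p = 0.894, SE 0.17). The cohorts overlapped for all 3. The 95% intervals, -0.56 to 0.23 for Scd2, -0.21 to 0.43 for Acly and -0.36 to 0.45 for Fasn, leave no room for a 2-fold change on this scale. Scd1, the related desaturase abundant in liver and fat, had at most 1 read in any mouse, so that Scd2 supplied nearly all reads of this pair of desaturases.

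Elovl6, which lengthens palmitate to stearate (ENSMUSG00000041220, GRCm38 chr3:129532355-129638495, plus strand), was under the filter, and its cohorts were far apart. Its RPKM was 0.475, 0.471 and 0.476 in Hoxa9/MTV, just under the filter of 0.5, and 0.0117, 0.0769 and 0.256 in Hoxa9/IRX3. These are 446, 415 and 489 reads against 11, 80 and 217 reads, over a span of 106141 bases of which 6431 are exon. The Hoxa9/MTV mice were nearly identical and every Hoxa9/IRX3 mouse was lower, with means of 0.474 ± 0.00294 and 0.115 ± 0.127 (SD, n = 3), a 4.12-fold difference. Mouse 3.2 was the lowest and mouse 3.5 the highest of the Hoxa9/IRX3 mice. With no filter, limma gave a log2 fold change of -0.68 (adjusted p = 0.0853, SE 0.15). With exon length in place of the span it gave -2.21 (adjusted p = 0.0929, SE 0.63), and voom on reads gave -2.98 (adjusted p = 0.0749, SE 0.77). None of these passed, with the 3 Hoxa9/IRX3 mice far from one another. Acaca, acetyl-CoA carboxylase, spans 271980 bases and was under the filter at an RPKM of 0.0478 to 0.0772 (exon level 0.961). Its cohorts overlapped, with a log2 fold change by exon length of 0.17 (adjusted p = 0.692).

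Stard4, which carries sterol between membranes, had the largest positive change among the 27 tested genes. Its RPKM was 3.66, 3.44 and 2.28 in Hoxa9/MTV and 4.40, 7.27 and 10.8 in Hoxa9/IRX3. All 3 Hoxa9/IRX3 mice were higher, with mouse 3.2 close to the Hoxa9/MTV range and mouse 3.5 farthest from it, and the means were 3.13 ± 0.742 and 7.49 ± 3.21 (SD, n = 3), a 2.39-fold difference. The log2 fold change was 1.08 (adjusted p = 0.107, SE 0.32, 95% interval 0.31 to 1.85), and without mouse 3.2 it was 1.39 (adjusted p = 0.0359).

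Of the 4 LXR genes and efflux pumps, 2 were tested. Nr1h2, the widely expressed LXR, was at 18.99, 19.3 and 23.7 RPKM in Hoxa9/MTV and at 23.1, 18.3 and 17.1 in Hoxa9/IRX3. It was the most abundant of the 4 (exon level 25.97), its cohorts overlapped, and its log2 fold change of -0.09 (adjusted p = 0.785, SE 0.17) turned to 0.00 or 0.01 when libraries were scaled. Abcg1, a pump that passes cholesterol to lipoprotein particles, was at 0.977, 1.14 and 0.999 RPKM in Hoxa9/MTV and at 1.36, 0.564 and 0.438 in Hoxa9/IRX3. Mouse 3.2 was the highest of the 6 and the other 2 Hoxa9/IRX3 mice the lowest. Over all 6 mice the log2 fold change was -0.32 (adjusted p = 0.479, SE 0.26), and without mouse 3.2 it was -0.62 (adjusted p = 0.0438). With each mouse left out in turn it ran from -0.62 to -0.13.

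Nr1h3, the LXR of macrophages, liver and fat, was under the filter at 0.0361, 0.0321 and 0.011 RPKM in Hoxa9/MTV and 0.337, 0.152 and 0.0334 in Hoxa9/IRX3. Its reads numbered 6, 5 and 2 against 56, 28 and 5, so that mouse 3.5 lay within the Hoxa9/MTV range. By exon length the log2 fold change was 1.16 (adjusted p = 0.222). Abca1, the pump that loads cholesterol on apolipoproteins, was also under the filter, at 0.049, 0.0205 and 0.0545 RPKM in Hoxa9/MTV and 0.0122, 0.0166 and 0.00874 in Hoxa9/IRX3. The cohorts did not overlap, with 56, 22 and 68 reads against 14, 21 and 9, and the mean was 3.30-fold lower in Hoxa9/IRX3. Its log2 fold change by exon length was -0.61 (adjusted p = 0.270) and by voom -1.62 (adjusted p = 0.174). With the 7 untested genes counted, the cohorts were apart upward for 10 of the 34 and downward for 4, beside 11.5% and 17.5% of the 14755 protein-coding genes with any read. After median-of-ratios scaling, which added Cyp51 and Nr1h3 and took out Srebf1, these counts were 12 and 3, beside 14.7% and 14.3%.

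Several of these calls turned on mouse 3.2. Without it, limma called 4 of the 27 genes (14.8%), Sqle, Srebf2 and Stard4 as higher and Abcg1 as lower in the remaining Hoxa9/IRX3 mice, 2 of them past 2-fold. Of these, Sqle had passed the filter through Hoxa9/IRX3 mice only, and its lowest value was in the mouse left out. Calls over all tested genes also went up without mouse 3.2, from 510 to 758 of 9522 (7.96%). Leaving out any other single mouse called 0 of the 27. Differences between roles or mice were not tested. Against the Hoxa9/MTV mean of log2 values, the 6 tested mevalonate genes averaged 0.24 in mouse 3.2, 0.22 in mouse 3.3 and -0.06 in mouse 3.5, while the 10 tested sterol genes averaged 0.10, 0.42 and 0.34. All tested genes averaged -0.05, -0.04 and -0.14 in these mice. The sterol averages include Sqle and Nsdhl, which passed the filter through Hoxa9/IRX3 mice only. The filter thus chose these 2 in part for being high there.

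**Figure D5:**
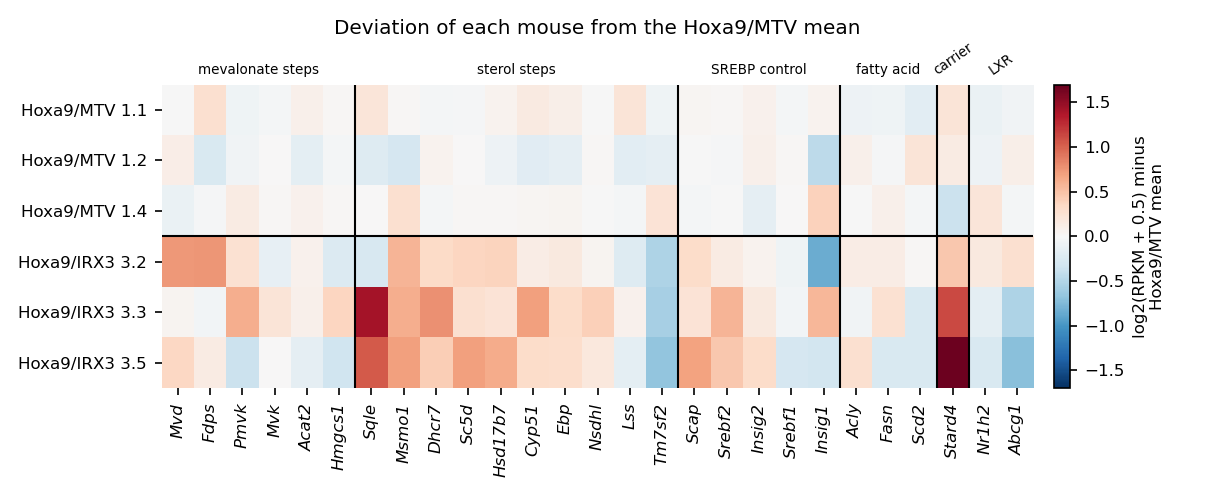
Heat map of log2(RPKM + 0.5) minus the Hoxa9/MTV mean, for each mouse and each of the 27 tested genes by role, red for higher and blue for lower. Sqle and Stard4 are darkest red in mice 3.3 and 3.5, and the sterol genes average 0.10, 0.42 and 0.34 in mice 3.2, 3.3 and 3.5. The sterol genes include Sqle and Nsdhl, which passed the filter on low values through Hoxa9/IRX3 mice only.

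A list of 64 further genes of the same pathways was read, of which 49 were tested. One fell, Osbp (2.04%, against 5.36% of all tested genes), and 0 rose by limma, with 9 of 49 (18.4%) at an unadjusted p under 0.05. The cohorts were apart upward for 3 of the 49 (6.12%) and downward for 11 (22.4%), beside 12.2% and 21.6% of all tested genes. With no filter and median-of-ratios scaling, these counts were 8 (12.7%) and 9 (14.3%) of 63, beside 14.7% and 14.3% of 14755 genes. Osbp, a carrier of sterols between endoplasmic reticulum and Golgi, was at 13.1, 11.5 and 10.9 RPKM in Hoxa9/MTV and at 7.17, 7.48 and 7.93 in Hoxa9/IRX3. All 3 Hoxa9/IRX3 mice were lower, and the log2 fold change was -0.62 (adjusted p = 0.0449, SE 0.13). The call was lost without any 1 of the 6 mice (adjusted p 0.0558 to 0.169), with all gene types tested, with array weights and after either scaling. Gramd1b, another sterol carrier, was under the filter and was called by exon length (-0.91, adjusted p = 0.0430) and by voom (-0.98, adjusted p = 0.0376). Osbp and Gramd1b were the 2 called of 55 tested by exon length (3.64%, beside 6.03% of all genes) and of 58 by voom (3.45%, beside 5.15%).

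Within that list the genes grouped as sterol handling, which store, move and break down sterols, also held 3 synthesis genes, the thiolase Acat1, the isoprenoid synthase Ggps1 and the sterol reductase Lbr. Of the 12 tested, 11 had a log2 fold change below 0 (Ggps1 -0.25, Lbr -0.29, Acat1 -0.00), 5 were apart downward, and the median was -0.31. The filter bears on these values, since Soat2, counted below 0 (-0.33), passed it through Hoxa9/MTV mice only. Of all tested genes 57.5% were below 0 and 21.6% apart downward, with a median of -0.06. Npc1, a lysosomal membrane protein of cholesterol export, was the exception at 0.21 (adjusted p = 0.576). Npc2, its soluble partner, was at 18.9, 20.9 and 23.2 RPKM in Hoxa9/MTV and 14.6, 17.7 and 12.5 in Hoxa9/IRX3 (log2 fold change -0.49, adjusted p = 0.149). Genes of SREBP and sterol-sensing control had 5 of 13 above 0 and 8 below, with 2 apart upward, 4 apart downward and a median of -0.05. Fatty acid synthesis, elongation and activation had 8 of 15 above 0 and a median of 0.09. Of these 15, Thrsp (0.63, with 53 reads in mouse 3.2 and at most 1 in any other) passed the filter through Hoxa9/IRX3 only. Elovl7 (-0.57) passed it through Hoxa9/MTV mice only. LXR partners and targets had 4 of 9 above 0 and a median of -0.22. Of these 9, Rxra (0.21) passed the filter through Hoxa9/IRX3 mice only and Arl4c (-0.35) through Hoxa9/MTV mice only. Differences between these groups were not tested. Npc1 and Npc2 were named after their values were seen.

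Fads1, a desaturase of polyunsaturated fatty acids, varied by mouse as Sqle did and was chosen after its values were seen. Its RPKM was 2.73, 2.78 and 2.196 in Hoxa9/MTV and 1.11, 5.99 and 6.93 in Hoxa9/IRX3. Mouse 3.2 was the lowest of all 6 and mice 3.3 and 3.5 the highest. With all 6 mice the log2 fold change was 0.48 (adjusted p = 0.627, SE 0.56), and without mouse 3.2 it was 1.18 (adjusted p = 0.0166). Without mouse 3.2, Hsd17b12 (-0.61, adjusted p = 0.0410) and Rxrb (-0.87, adjusted p = 0.0291) were called as well.

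Some markers of other cell types differed between the cohorts, and their values are given beside these results. Of 12 neutrophil markers, all tested, Cd177 (log2 fold change 1.42, adjusted p = 0.0107) and Retnlg (1.75, adjusted p = 0.0285) rose. Ltf (-0.99, adjusted p = 0.315), Mmp8 (-0.75, adjusted p = 0.320) and Ngp (-0.13, adjusted p = 0.870) lay the other way without passing. The rest of the list lay above 0, with a median of 0.35 over all 12. Among the rest, Il1r2 (0.37) passed the filter through Hoxa9/IRX3 mice only. Mmp9 (1.29, adjusted p = 0.137), whose cohorts did not overlap, did not pass. The summed exon level of the 12 was 4060, 6030 and 4104 in Hoxa9/MTV and 5623, 3075 and 8774 in Hoxa9/IRX3, with Ngp the most abundant. Of 16 monocyte and macrophage markers 9 were tested, and Ccr2 (-2.06, adjusted p = 0.00843) and Cd68 (-2.68, adjusted p = 0.0135) fell. Their sum was 1716, 1840 and 1526 in Hoxa9/MTV and 1051, 1765 and 1722 in Hoxa9/IRX3. Without the most abundant, Ly6c2, it was 1141, 1174 and 914 against 475, 666 and 547, a sum carried by Lyz2 (exon level 926, 944 and 656 against 351, 582 and 501). The list was not uniform, since the exon levels of Cd14 (50.8) and Mrc1 (12.8) were highest in mouse 3.2 and that of Csf1r (35.1) in mouse 3.3. Of the markers of tissue macrophages, Marco, C1qc and Timd4 had no read, and C1qa and C1qb had at most 3 and 13 reads in any mouse. Cd163 had 94, 80 and 380 reads in Hoxa9/MTV and 1, 9 and 18 in Hoxa9/IRX3. It passed the filter through Hoxa9/MTV mice only and did not pass limma (-1.11, adjusted p = 0.109). By exon length limma called it (-2.36, adjusted p = 0.0473), and voom did not (adjusted p = 0.135).

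Of 10 mast cell and basophil markers 4 were tested, and Cpa3 (-1.395, adjusted p = 0.0432) and Gata2 (-2.61, adjusted p = 0.0166) fell. Mcpt8, at -1.21 (adjusted p = 0.0621), did not pass. Ms4a2 lay the other way, at 0.290, 0.279 and 0.542 RPKM in Hoxa9/MTV and 1.09, 0.610 and 0.933 in Hoxa9/IRX3, and did not pass (0.66, adjusted p = 0.103). The summed exon level was 58.7, 58.5 and 80.1 in Hoxa9/MTV and 14.3, 22.6 and 21.2 in Hoxa9/IRX3, with Mcpt8 the most abundant, while Fcer1a, Mcpt4, Cma1, Tpsb2 and Tpsab1 had no read. Of 8 B cell markers 3 were tested and Cd79b fell (-2.65, adjusted p = 0.0383). The other 2, components of the early B cell receptor, lay the other way without passing. Igll1 was at 0.102, 0.0726 and 0.0312 RPKM in Hoxa9/MTV and at 1.19, 9.11 and 38.4 in Hoxa9/IRX3 (3.92, adjusted p = 0.0776), and Vpreb1 had a log2 fold change of 1.08 (adjusted p = 0.272). Both passed the filter through Hoxa9/IRX3 mice only, as Cpa3 did through Hoxa9/MTV mice only. The B cell sum was 15.5, 17.2 and 17.6 in Hoxa9/MTV and 3.94, 15.5 and 69.8 in Hoxa9/IRX3, with Igll1 the most abundant over the 6 mice and no read of Ms4a1 or Pax5. T and NK cell markers (7) and erythroid markers (8 found of 9) were all under the filter, with Klrb1c (exon level 0.0657) and Klf1 (0.418) the most abundant. Of 5 megakaryocyte markers 2 were tested, led by Gp1bb (5.69), and of 7 stromal and endothelial markers 1, Pecam1 (37.8), and limma called 0 in either list, with 0 at an unadjusted p under 0.05 and 0 by voom.

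The markers used for sorting were present. Kit RPKM was 3.12, 2.64 and 2.48 in Hoxa9/MTV and 2.70, 1.63 and 2.14 in Hoxa9/IRX3 (log2 fold change -0.31, adjusted p = 0.323). Ly6g, one of the antigens that Gr1 antibodies bind, rose from 0.145, 0.124 and 0.0532 to 1.42, 0.682 and 1.13 (log2 fold change 1.35, adjusted p = 0.0205). It passed the filter through Hoxa9/IRX3 mice only and had 2 to 5 reads per mouse in Hoxa9/MTV, so a filter on low values chose it in part for being high there. Ly6c2, the other antigen, was abundant in every mouse (exon level 784). In the list of 5 surface markers, Kit, Ly6g, Ly6c1, Itgam and Ptprc, the most abundant was Itgam (exon level 35.8), which was not part of the sort. Growing cells need membrane lipid, and of 12 proliferation markers, all tested, limma called 0, with 3 at an unadjusted p under 0.05 and 0 by voom. The share of all tested genes at that p was 24.3%. Of the 3, Cdk1 (-0.57, adjusted p = 0.0908) and Aurkb (-0.53, adjusted p = 0.0820) were lower in every Hoxa9/IRX3 mouse. Mcm2 (0.35, adjusted p = 0.203) was higher in every one. Bub1 (-0.50) was likewise apart downward and Tyms (0.30) upward. The summed exon level of the 12 was 431, 412 and 391 in Hoxa9/MTV and 362, 534 and 404 in Hoxa9/IRX3, with Mki67 the most abundant (131). Leaving out 1 mouse at a time, the marker calls held in 4 of 6 fits for Ccr2, in 3 for Cd177, Retnlg, Cd68, Gata2 and Ly6g, and in 1 for Cpa3 and Cd79b, with an adjusted p of up to 0.157. With voom on genes of at least 10 reads, Retnlg (adjusted p = 0.0878), Cpa3 (0.111) and Ly6g (0.0623) did not pass. Among the 12 other settings that keep all 6 mice, Cpa3 passed in 5, Cd79b in 7, Retnlg in 8, Ly6g in 10, Gata2 in 11, and Cd177, Ccr2 and Cd68 in 12. The part of cell type, of maturation and of proliferation in the lean of the sterol genes was not tested.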

How the data were processed

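The authors aligned paired-end reads to GRCm38 with Bowtie2 2.2.1, filtered them with SAMtools 0.1.19 and deposited RPKM per gene and mouse. Gene types, spans and exon lengths came from GENCODE M21 for 40254 of the 41128 genes. Dividing by gene span gave whole reads, within 0.01, in 70.6% to 71.9% of protein-coding genes with under 500 reads, and dividing by exon length in 3.45% to 3.70%. Reads so recovered were whole in all 6 mice for 64.3% of tested genes and 21 of the 34 genes described, and are approximate for the rest. Changes were fitted on log2(RPKM + 0.5) with limma 3.58.1 (R 4.3.3, eBayes with trend) and Benjamini-Hochberg adjustment over 9522 genes. Genes past the test, with cohorts apart, or among the 3 highest exon levels of their role are given by mouse, and the rest by range. Of the pathway list, genes past the test are named, and of the marker lists, the most abundant gene and those past the test. Others named from these lists were chosen after their values were seen. Members and lists were chosen with earlier results of these data known. Exon length in place of the span, and voom on genes with at least 10 reads in 1 mouse, were added after seeing the data. Promoters came from RefSeq. All value columns were used (0 left out). Tables and plots were made with Python 3.11.15, numpy 2.4.6, pandas 2.3.3, scipy 1.17.1 and matplotlib 3.10.9.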

Additional observations from a re-analysis of the deposited data

How the results depend on the processing

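Over 18 other settings, 19 of the 27 tested genes kept their direction in every one and 8 turned in at least 1, and 461 of 483 values kept direction and side of the threshold. The settings were pseudocounts of 0.1 and 1, an RPKM over 1, no filter, all gene types, no variance trend, array weights, quantile normalization, scaling by median of ratios, voom, exon length, voom with at least 10 reads, and each mouse left out in turn. The criterion of the study was applied to the counts. Acat2 turned to -0.00376 with array weights, Hmgcs1 to 0.00885 with median-of-ratios and 0.0405 with quantile normalization, and Nr1h2 to 0.00079 and 0.00745. With each mouse left out in turn, log2 fold changes ran from -0.0760 to 0.0809 for Acat2, -0.288 to 0.0693 for Hmgcs1, -0.0673 to 0.112 for Mvk, -0.0512 to 0.441 for Pmvk, -0.193 to 0.00415 for Lss, -0.578 to 0.130 for Insig1, -0.0643 to 0.195 for Fasn and -0.212 to 0.0149 for Nr1h2. The count of the 27 called by limma was 1 (Msmo1) with quantile normalization and 0 to 4 with a mouse left out (0 to 2 at 2-fold). For all tested genes, 510 calls became 326 with all gene types and 61 to 758 with a mouse left out. The 298 calls at 2-fold became 175 with no filter, 552 with exon length, 496 with voom on at least 10 reads, 664 by the criterion of the study, and 61 to 409 with a mouse left out. The 1 call on the pathway list became 0 with all gene types, median-of-ratios, quantile normalization or array weights, 2 with exon length or voom on at least 10 reads, and 0 to 3 with a mouse left out. The cause of these shifts was not tested. Scaling moved the median of all genes by less than 0.1 (log2), from -0.06 to 0.01 or 0.02. Read depth limits Idi1, Nr1h3, Abca1 and Scd1.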
